A study of Homo sapiens and Mus musculus with 16 samples.

Results

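The promoters described are those of the chromosome 19 zinc finger genes, taken as the 240 protein-coding genes on human chromosome 19 whose symbol is ZNF followed by digits alone. A promoter region was any accessible region within 1 kb of a start site of such a gene. By this rule 227 of the 118107 regions of the control (Cas9) list and 221 of the 97047 regions of the HNF4G-KO list were chosen. The rule itself used position and gene symbol. They were set beside the promoter regions of the 1227 other protein-coding genes of chromosome 19, of the 236 genes of the same symbol form on other chromosomes, and of the 18321 remaining genes. The comparison asks whether the promoters of this gene family differ from other promoters in accessibility, and where they stand once HNF4G is lost.

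Accessibility was measured by ATAC-seq in HPAF-II cells, a line established from a human pancreatic adenocarcinoma. The control cells carried Cas9 with HNF4G intact. In the HNF4G-KO cells the gene of the nuclear receptor HNF4G had been disrupted by CRISPR, and the line was a pool of several single-cell clones, so that differences between clones and the loss of HNF4G cannot be told apart. Each group comprised 4 replicates but was represented by 1 region list, with a score per region whose scale is not stated. Because the lists hold no values of single replicates and their read depth is unknown, differences are given without a replicate check or a p-value. Mouse KPC lines of the same study were not used.

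Most zinc finger genes of chromosome 19 encode KRAB zinc finger proteins, which arose by repeated local duplication and lie in clusters of near copies. Their arrays of C2H2 fingers bind DNA, often within transposable elements, and the KRAB domain recruits TRIM28 (KAP1), which in turn brings in the histone H3 lysine 9 methyltransferase SETDB1 and HP1 proteins. The bodies of these genes are themselves commonly packed in H3K9me3 heterochromatin, while their promoters can remain active.

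The sequences of cluster D (chr19:19668796-24129968) show how similar neighboring promoters can be while only some of them lay in an accessible region. For each gene 110 bases are given 5′ to 3′ on the strand of the gene in hg38, from 120 to 11 bases before the canonical start site, with no annotated exon base. Capitals mark the ETS sequence CCGGAAG and the NFY sequence CCAAT, or their reverse complements. ZNF724, ZNF506 and ZNF91 had a strong region in both lists, ZNF43 and ZNF486 had one in the control list alone, and the last 4 had none in either list. These promoters were chosen after their values were seen.
ZNF724 (chr19:23250405-23250514, minus strand): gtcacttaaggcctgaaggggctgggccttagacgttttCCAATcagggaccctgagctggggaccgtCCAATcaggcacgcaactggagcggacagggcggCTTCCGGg
ZNF506 (chr19:19821761-19821870, minus strand): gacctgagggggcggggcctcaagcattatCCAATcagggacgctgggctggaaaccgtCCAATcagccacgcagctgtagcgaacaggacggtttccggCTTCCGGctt
ZNF91 (chr19:23395482-23395591, minus strand): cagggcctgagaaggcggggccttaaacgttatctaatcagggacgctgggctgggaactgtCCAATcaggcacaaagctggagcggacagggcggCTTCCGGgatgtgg
ZNF43 (chr19:21836193-21836302, minus strand): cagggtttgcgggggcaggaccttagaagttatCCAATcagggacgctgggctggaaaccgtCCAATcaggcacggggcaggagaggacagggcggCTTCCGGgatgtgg
ZNF486 (chr19:20167094-20167203, plus strand): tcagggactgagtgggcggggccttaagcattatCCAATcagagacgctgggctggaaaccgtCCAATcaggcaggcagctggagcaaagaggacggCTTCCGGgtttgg
ZNF730 (chr19:23116905-23117014, plus strand): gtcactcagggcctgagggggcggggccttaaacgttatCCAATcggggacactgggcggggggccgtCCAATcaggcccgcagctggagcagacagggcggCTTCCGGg
ZNF492 (chr19:22634204-22634313, plus strand): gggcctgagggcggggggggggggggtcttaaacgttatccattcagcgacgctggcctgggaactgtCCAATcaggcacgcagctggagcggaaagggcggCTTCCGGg
ZNF728 (chr19:23003187-23003296, minus strand): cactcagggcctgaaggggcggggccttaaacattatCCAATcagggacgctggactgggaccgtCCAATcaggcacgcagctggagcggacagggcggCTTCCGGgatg
ZNF723 (chr19:22832171-22832280, plus strand): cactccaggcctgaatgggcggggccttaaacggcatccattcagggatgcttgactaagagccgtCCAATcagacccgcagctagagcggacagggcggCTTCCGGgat

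Each of the 9 sequences held 1 ETS sequence and 1 or 2 NFY sequences. The score percentile, which runs from 0 for the weakest to 100 for the strongest region of a list, was 99.6 in control and 98.2 in HNF4G-KO for ZNF724. It was 99.7 and 99.0 for ZNF506 and 93.4 and 92.4 for ZNF91, which encodes a repressor of SVA retrotransposons. The control region of ZNF43 stood at the 51.8 percentile and that of ZNF486 at the 11.3 percentile, and neither gene had an HNF4G-KO region. Alignment to the 110 bases of ZNF91 gave 85.1% identity for ZNF728, which had no region, and 75.9% for ZNF724, which had one of the strongest. Over the whole cluster the median identity to ZNF91 was 77.0% for the 23 other members with a control region (38.8 to 90.9%) and 76.7% for the 13 members without one (30.6 to 85.1%), while the 203 members elsewhere had a median of 41.7%. The share of 32-base words of the promoter that occur once on chromosome 19 was 97.0% for ZNF728 and 90.7% for ZNF91. How the authors treated reads that match several places is not given in the sources used here.

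A second set shows CpG-rich promoters, which in most genes are accessible in all cells. Here 190 bases are given, from 200 to 11 bases before the start site and again without exon bases, and capitals mark CpG dinucleotides. ZNF574 was among the strongest promoters of both lists, whereas ZNF583, ZNF471 and ZNF71 are neighbors in cluster I that had no region in either list. This set was also chosen after the values were seen.
ZNF574 (chr19:42075966-42076155, plus strand): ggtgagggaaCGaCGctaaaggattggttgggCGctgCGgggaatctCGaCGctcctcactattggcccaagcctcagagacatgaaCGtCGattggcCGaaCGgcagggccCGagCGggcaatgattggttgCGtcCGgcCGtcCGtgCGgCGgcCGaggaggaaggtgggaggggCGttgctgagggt
ZNF583 (chr19:56404132-56404321, plus strand): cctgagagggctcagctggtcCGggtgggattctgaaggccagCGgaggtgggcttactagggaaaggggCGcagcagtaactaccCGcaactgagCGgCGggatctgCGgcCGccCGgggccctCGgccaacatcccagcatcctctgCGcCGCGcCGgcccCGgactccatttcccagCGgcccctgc
ZNF471 (chr19:56507655-56507844, plus strand): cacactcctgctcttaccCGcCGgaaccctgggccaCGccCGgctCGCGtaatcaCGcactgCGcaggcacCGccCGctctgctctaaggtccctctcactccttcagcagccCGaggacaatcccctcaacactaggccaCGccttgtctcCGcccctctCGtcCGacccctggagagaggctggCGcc
ZNF71 (chr19:56595102-56595291, plus strand): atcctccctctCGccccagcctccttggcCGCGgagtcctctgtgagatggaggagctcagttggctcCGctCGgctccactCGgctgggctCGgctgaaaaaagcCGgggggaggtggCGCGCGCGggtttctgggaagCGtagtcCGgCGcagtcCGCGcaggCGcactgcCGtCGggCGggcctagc

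ZNF574 held 20 CpG in these bases, ZNF583 and ZNF471 held 16 each and ZNF71 held 21. These promoters were picked for this contrast, which is an example and not a result. Every 32-base word of these 4 promoters occurred once on chromosome 19.

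The zinc finger promoters were mostly accessible. A region lay at a start site of 195 of the 240 genes in control (81.2%, Wilson 95% interval 75.8 to 85.7%) and of 190 in HNF4G-KO (79.2%, 73.6 to 83.8%). All 190 also had a control region, 5 genes had a region in the control list alone, none had one in the HNF4G-KO list alone, and 45 had none in either. Among the other genes of chromosome 19 the share with a control region was 74.9% (72.4 to 77.2%), and among zinc finger genes of other chromosomes it was 89.0% (84.3 to 92.4%). Intervals cover counting error only, and neighboring copies are not independent. Of the 195 promoters, 162 had 1 region and 33 had 2 or more, and the strongest region covered the canonical start site in 181. Of the 227 regions, 14 lay at 2 members and 39 also lay within 1 kb of a gene that is not a member.

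The regions ranked high within their lists. The median score percentile was 91.3 in control (95% interval of the median 89.3 to 92.8) and 89.1 in HNF4G-KO (86.4 to 90.7). The regions of other chromosome 19 promoters had medians of 62.0 and 63.3, those of zinc finger genes on other chromosomes 82.9 and 81.9, and those of all remaining genes 69.7 and 71.4. In control 53.3% of the zinc finger regions stood above the 90th percentile, compared with 16.1% on the rest of chromosome 19 and 36.5% for zinc finger genes elsewhere. Taken by gene, with the strongest region of each, the median was 92.8. It was 89.8 for zinc finger genes on other chromosomes and 82.7 for other chromosome 19 genes. At this level 122 members (62.6% of those with a region) stood at or above the 90th percentile, 67 between the 50th and the 90th and 6 below the 50th. The share at or above the 90th was 49.5% for zinc finger genes elsewhere, 31.9% for other chromosome 19 genes and 36.8% for all protein-coding genes.

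The zinc finger regions were also wider, with a median of 1098 bp compared with 682 bp on the rest of chromosome 19 and 1029 bp for zinc finger genes elsewhere. Width and score move together, so the sets were compared within 10 width classes. Weighted to the widths of the zinc finger regions, the mean control percentile was 73.3 for other chromosome 19 regions and 74.4 for the remaining genes, against 81.9 for the zinc finger regions. The smallest width class held 2 zinc finger regions.

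The strongest promoters included 2 of cluster D, ZNF714 and ZNF506, 1 of C (ZNF564), 1 of F (ZNF527) and ZNF574, which lies outside the clusters lettered A to J below. ZNF564 and ZNF527 both stood at the 99.8 percentile in control, and at 99.5 and 99.0 in HNF4G-KO. ZNF574 and ZNF714 stood at 99.7 in control and at 99.6 in HNF4G-KO. ZNF506, shown above, completed the top 5. At the other end ZNF132 had a control region at the 3.24 percentile, ZNF569 and ZNF570, which share 1 region, stood at 30.3, and ZNF556 stood at 36.5. ZNF486 at 11.3 was the remaining weak promoter of the lowest 5.

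Among members with a described role, ZNF93, a repressor of LINE-1 elements, stood at the 92.4 percentile in control and 90.7 in HNF4G-KO. ZNF274, which binds the 3′ ends of zinc finger genes and recruits SETDB1 there, stood at 94.4 and 91.9. ZNF146, which consists almost wholly of zinc fingers and lacks a KRAB domain, had values of 97.5 and 96.6. The imprinted gene ZNF331 stood at 97.3 and 94.8, ZNF649 at 86.4 and 82.4, and ZNF544 at 92.1 and 92.3. ZNF304, a KRAB protein that recruits silencing complexes, stood at 95.6 and 90.6. No region was found in either list at ZNF208, at ZNF536, which is known from neurons, or at ZNF382, ZNF154 and ZNF671, whose promoters are often methylated in carcinomas. DNA methylation was not measured here.

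Along the chromosome 228 of the 240 genes fell into 10 clusters of at least 5 members, lettered A to J, in which neighboring 5′ ends lay at most 500 kb apart, and 12 lay outside them. Cluster A (2819868 to 2944971, 5 members) and cluster E (34677639 to 34964229, 5 members) are small. Clusters B (8509678 to 9793180, 13 members) and C (11483427 to 12640098, 25 members) lie on the short arm, and cluster D (19668796 to 24129968, 37 members) is the longest. On the long arm follow F (36182276 to 37817300, 24 members), G (43525497 to 44500524, 23 members), H (51571283 to 53580269, 39 members), I (55476617 to 56671783, 16 members) and J (57191500 to 58481230, 41 members). Coordinates are those of hg38.

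The share of members with a region differed among the clusters. All 23 members of G and all 5 each of A and E had a control region. In F 22 of 24 did, in B 11 of 13, in C 21 of 25, in J 34 of 41 and in H 31 of 39. Cluster D had a region at 24 of 37 members (64.9%, 48.8 to 78.2%) and cluster I at 9 of 16 (56.2%, 33.2 to 76.9%). The interval of G (85.7 to 100%) did not overlap those of D and I. Where a region was present it was strong in D. Taken by gene, the median control percentile was 96.1 in D, 82.3 in I and 83.3 in B. Taken by region it was 95.9 (89.1 to 98.3) in D, 77.3 (28.1 to 82.6) in I and 83.3 (76.6 to 95.9) in B. The intervals of D and B overlapped. The medians of the other clusters were 98.9 in A, 93.7 in J, 93.0 in C, 91.8 in E, 91.6 in F, 88.9 in G and 87.2 in H.

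**Figure D1:**
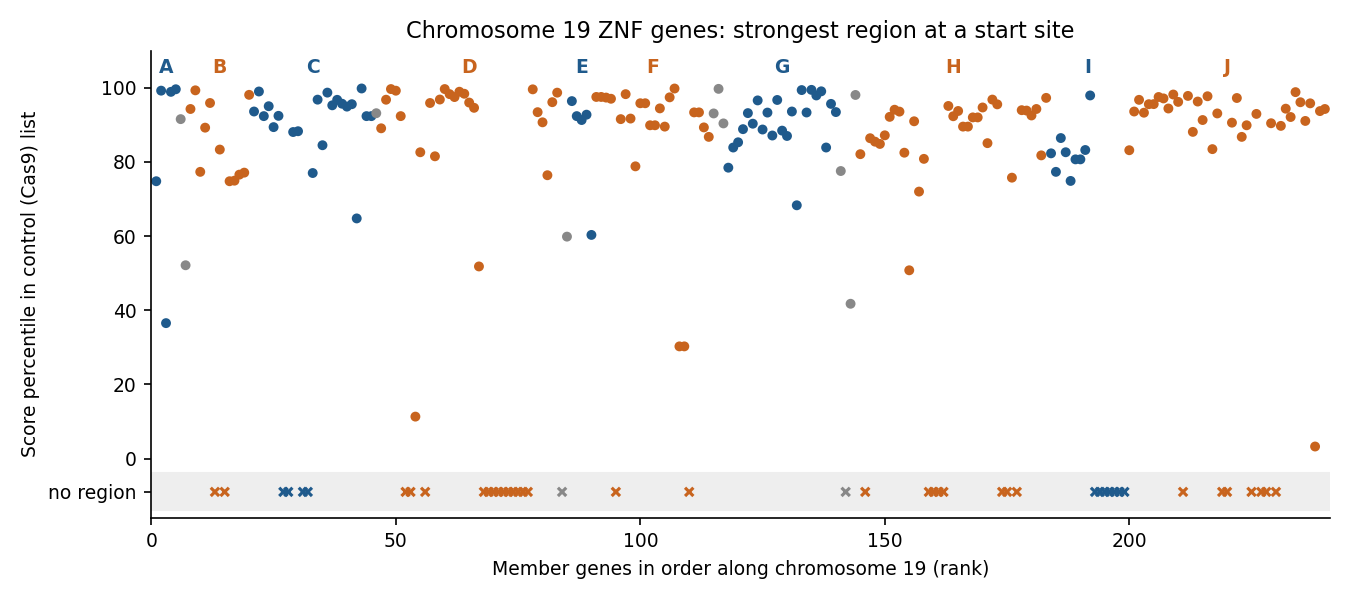
Control score percentile (y axis) of the strongest promoter region of each of the 240 genes (points), in order along chromosome 19 (x axis), with clusters A to J in alternating colors, genes outside clusters in grey and the 45 genes without a region as crosses in the band at the bottom. Most genes stand near the top, 122 of them at or above the 90th percentile, and the longest runs of crosses are the 10 genes of cluster D and the 7 of cluster I.

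Much of the absence was contiguous. In D 10 members in a row, ZNF208, ZNF257, ZNF676, ZNF729, ZNF98, ZNF492, ZNF99, ZNF723, ZNF728 and ZNF730, had no region in either list. The stretch from 21932958 to 23147221, which spans 1.21 Mb, held no region of any kind in either list. In I the 7 members ZNF582, ZNF583, ZNF667, ZNF471, ZNF470, ZNF71 and ZNF835 formed a run over 0.296 Mb (56375846 to 56671783), again without any region. In H the 4 members ZNF880, ZNF528, ZNF534 and ZNF578 did so over 0.147 Mb (52369917 to 52516882). These 3 runs held 21 of the 45 members without a region. The promoters in the runs of H and I were made of unique sequence (median 100% of 32-base words found once on chromosome 19). In the run of D the median was 95.4%, and values ran from 43.9% at ZNF676 and 53.5% at ZNF208 to 99.3% at ZNF257. A region that was not called says only that no region passed the authors' threshold at an unknown depth.

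The zinc finger promoters without a region differed in CpG content from those of other chromosome 19 genes without one. The ratio of observed to expected CpG was taken over 300 bases, from 250 before to 50 after the canonical start. Its median was 0.780 for members with a control region and 0.677 for members without one, while for other chromosome 19 genes it was 0.809 and 0.349. Of the 45 members without a region 33 (73.3%) had a ratio of 0.6 or more, against 72 of 308 (23.4%) among the other genes. Among promoters at or above that ratio a region was present at 155 of 188 members (82.4%, 76.4 to 87.2%), at 672 of 744 other chromosome 19 genes (90.3%, 88.0 to 92.2%) and at 182 of 192 zinc finger genes elsewhere (94.8%, 90.7 to 97.1%). With a ratio from 0.3 to 0.6 the order was the other way, with a region at 38 of 48 members (79.2%, 65.7 to 88.3%) and 136 of 241 other chromosome 19 genes (56.4%, 50.1 to 62.5%). Zinc finger genes elsewhere had one at 23 of 35 (65.7%, 49.2 to 79.2%), an interval that overlaps that of the members. Among the members the difference in CpG ratio between promoters with and without a region was thus smaller than on the rest of the chromosome, and it was not tested. Sequence uniqueness was below 90% at 17 members with a region and at 5 without.

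**Figure D2:**
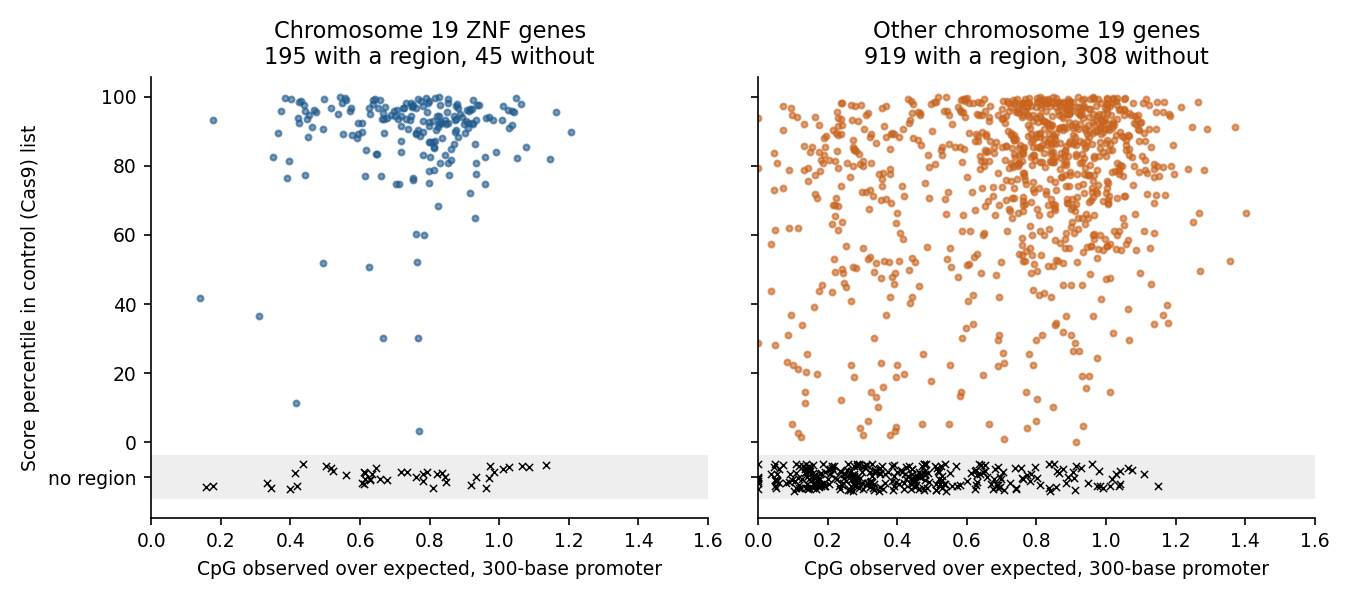
Ratio of observed to expected CpG in the 300-base promoter (x axis) against the control score percentile of the strongest region (y axis), for zinc finger genes (left) and other genes (right) of chromosome 19, with genes that lack a region as crosses at the bottom. Zinc finger genes with and without a region overlap widely in CpG ratio, with medians of 0.780 and 0.677, whereas the crosses of the other genes lie mostly to the left, with a median of 0.349.

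Short sequences known as the core of binding sites were counted on both strands of the same 300 bases. The ETS sequence CCGGAAG was present at 43.8% of the members (37.6 to 50.1%), at 15.1% of other chromosome 19 promoters, at 34.7% of zinc finger promoters elsewhere and at 14.1% of all 20033 protein-coding promoters. The NFY sequence CCAAT was present at 52.1%, 37.1%, 41.5% and 36.1% in the same order. Both occurred together at 61 members (25.4%), against 5.54% on the rest of the chromosome and 4.82% of all promoters. Over all clusters ETS was found at 43.6% of members with a region and 44.4% of those without, and NFY at 98 of 195 and 27 of 45. Within clusters the ETS split went both ways and was not tested. In D 18 of 24 members with a region and 7 of 13 without held it, and in I 5 of 9 and 2 of 7. In H it was 18 of 31 and 6 of 8. The SP/KLF sequence GGGCGG was common everywhere (69.2% of members, 61.3% of all promoters), and TATAAA was found at 7 members (2.92%). The HNF4 sequence CAAAGTCCA was present at 1 member (0.417%, compared with 0.319% of all promoters) and the FOXA sequence TGTTTAC at 3 (1.25%, compared with 2.42%). The remaining sequences were found at 3.33% of members for NRF1 (GCGCATGCG) and for YY1 (AAGATGGCG), at 3.75% for CRE (TGACGTCA) and at 1.67% for ZNF143 (ACTACAATT). Over all promoters their shares were 2.70%, 2.84%, 2.69% and 0.449%. A match of letters is not evidence of a bound factor.

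The ETS and NFY sequences were distributed by cluster. In D 36 of 37 members held CCAAT and 25 held CCGGAAG, each of the 25 together with CCAAT. In C 23 of 25 held CCAAT but only 2 held CCGGAAG, and in A all 5 held CCAAT and none CCGGAAG. Cluster H had the reverse, with CCGGAAG at 24 of 39 and CCAAT at 11. Cluster J had both in number, with CCGGAAG at 25 and CCAAT at 28 of 41 members. In F 5 and 4 of 24 members held the ETS and the NFY sequence, and in G 9 and 4 of 23. Members of a cluster share ancestry, so these counts are not independent.

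**Figure D3:**
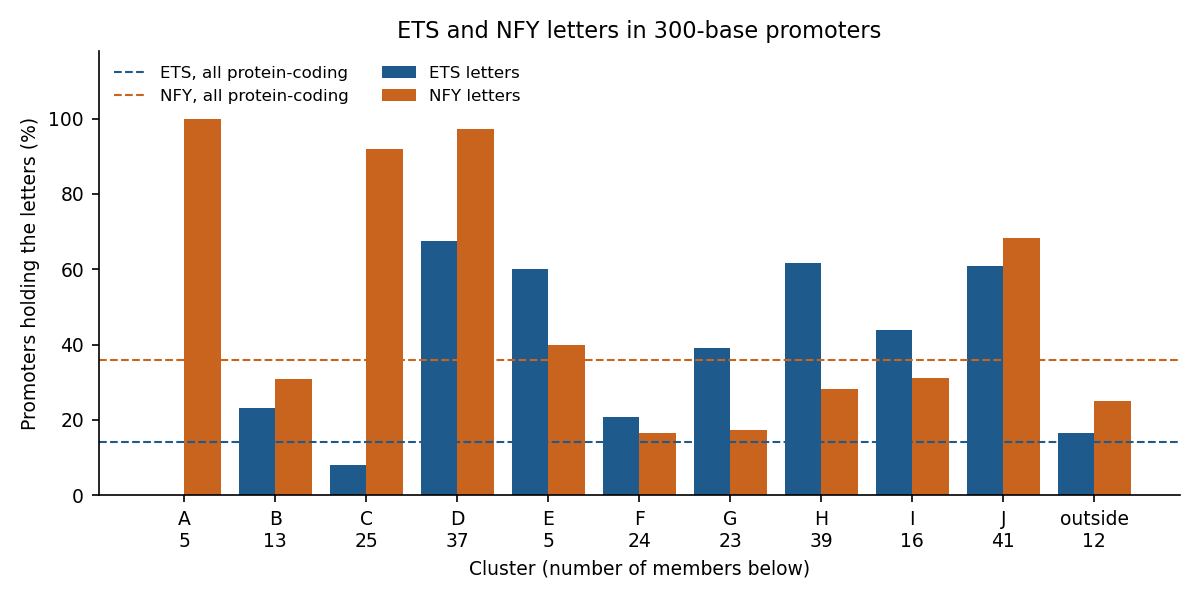
Percentage of members (y axis) in each cluster (x axis) whose 300-base promoter holds the ETS sequence CCGGAAG or the NFY sequence CCAAT, with dashed lines at the shares over all protein-coding promoters. Clusters A, C and D are high in CCAAT, while H is high in CCGGAAG and low in CCAAT.

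Few zinc finger promoter regions were lost from the list in HNF4G-KO cells. Of the 227 control regions 14 (6.17%, 3.71 to 10.1%) had no overlap with the HNF4G-KO list, against 25% of all control regions and 12.3% of all protein-coding promoter regions. The share was 14.4% (12.6 to 16.3%) on the rest of chromosome 19 and 6.94% (4.54 to 10.5%) for zinc finger genes elsewhere. In the other direction 2 of 221 regions (0.905%, 0.249 to 3.24%) were in the HNF4G-KO list alone, beside 6.76% of all regions of that list, 3.77% of its promoter regions and 4.31% on the rest of chromosome 19. The HNF4G-KO list is shorter, and weak regions are more easily absent from it. Weighted to the scores of the zinc finger regions, the share in the control list alone was 4.62% for other chromosome 19 regions and 4.50% for the remaining genes, both inside the interval of the 6.17% of the members. Weighted to their widths, it was 5.41% and 5.28%.

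The 14 control regions absent from the HNF4G-KO list were weak and narrow. Their median percentile was 17.9 (1.13 to 51.8) and their median width 264 bp, compared with 92.2 and 1124 bp for the 213 shared regions. None of the 196 regions at or above the 60th percentile was among them. This allows a share of up to about 1.53%, taken as 3 divided by 196 and not as a Wilson limit. Other promoters were alike here. Between 60 and 70, 1 of 138 other chromosome 19 regions was in the control list alone, and above 70 none was. For the remaining genes it was 6 of 2020 between 60 and 70 and 3 of 2509 between 70 and 80. They lay at 15 genes, of which 10 kept another region in HNF4G-KO. Those 10 were ZNF563, ZNF93, ZNF529, ZNF45, ZNF225, ZNF114, ZNF841, ZNF432, ZNF600 and ZNF444. ZNF114 had 2 of these regions, at percentiles 41.7 and 38.7, and ZNF841 and ZNF432 shared 1 at 31.2.

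The remaining 5 genes, ZNF486, ZNF43, ZNF569, ZNF570 and ZNF132, had no region in HNF4G-KO. The strongest was at ZNF43, a region of 607 bp (chr19:21835807-21836413) over the start site at the 51.8 percentile. In the score bin from 50 to 60 that holds it, 1 of 126 other chromosome 19 regions and 66 of 1644 regions of the remaining genes were in the control list alone. ZNF569 and ZNF570 share a region of 538 bp, which covered the canonical start of ZNF569 but not that of ZNF570. The region of ZNF132 lay 264 bp from the start site of a transcript that is not the canonical one and did not cover the canonical start. The 2 regions in the HNF4G-KO list alone lay near ZNF253, at the 8.54 percentile, and ZNF792, at the 0.0134 percentile, and both genes also had a shared region.

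Among shared regions the rank was compared within the shared set, as the percentile in HNF4G-KO minus that in control. The median change of the 213 zinc finger regions was -0.339 points (-0.761 to 0.101), while other chromosome 19 promoters changed by 2.11 (1.58 to 2.56), zinc finger promoters elsewhere by 1.72 (0.676 to 2.54) and remaining genes by 2.48 (2.32 to 2.61). A lower rank in HNF4G-KO was found at 121 of the 213 regions (56.8%), beside 35.1% of all shared promoter regions and 46.6% of all shared regions. A region near the top of the list has little room to rank higher, so the same was done by score. Between the 90th and the 100th control percentile the median was -0.583 (-1.05 to -0.250) for the zinc finger regions and 0.338 (-0.0695 to 0.563) for other chromosome 19 promoters. In that bin 81 of 121 zinc finger regions (66.9%) ranked lower, compared with 102 of 223 (45.7%) on the rest of the chromosome, 45.7% of zinc finger regions elsewhere and 45.7% of the remaining genes. Between the 80th and the 90th percentile the medians were -0.660 (-3.25 to 1.92) and 1.98 (0.936 to 2.60), and these intervals overlapped. Weighted over all score bins to the zinc finger regions, the mean change was 0.988 points for the zinc finger regions and 1.04 for other chromosome 19 promoters. With scores matched over the whole range these means differed little, and the lower ranks of the zinc finger regions were seen in the top bins. The scale of the ranks mattered. With percentiles of the whole lists in place of the shared set, the medians were -1.95 for the zinc finger regions and -1.77 for other chromosome 19 promoters, beside -4.65 for all shared regions, and in the top bin they were -1.42 and -0.458.

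The order of the zinc finger promoters was otherwise similar in both lists, with Spearman's rho of 0.923 between the scores of the 213 region pairs, given as a description. Shifts of 10 points or more were few, but their shares were not matched for score. Above the 90th control percentile a region has little room to rank higher. There stood 53.3% of the zinc finger regions and 21.0% of those of the remaining genes. A rank lower by at least 10 points was found at 7 zinc finger regions (3.29%), beside 7.57% of all shared promoter regions and 17.1% of all shared regions. A rank higher by at least 10 points was found at 16 (7.51%), beside 23.9% and 20.5%. Of these 16, 8 were not paired with a single region, since 1 HNF4G-KO region overlapped several control regions and all of them took its rank. They lay at ZNF616, ZNF83, ZNF579, ZNF787 and the neighbors ZNF580 and ZNF581, and these genes are named after their values were seen.

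Taking the strongest region of each gene, ZNF285 had the largest shift downward, from the 83.9 percentile of the control list to the 67.6 percentile of the HNF4G-KO list (-13.3 points among shared regions). ZNF224, a transcriptional repressor, went from 87.0 to 72.8 (-11.9), ZNF530 from 91.3 to 78.4 (-11.5), ZNF222 from 87.1 to 73.4 (-11.4) and ZNF813 from 81.8 to 67.3 (-10.8). ZNF285, ZNF224 and ZNF222 are in cluster G. Upward shifts were those of ZNF556 (36.5 to 38.0, 13.4 points among shared regions), ZNF85 (81.5 to 88.7, 12.5 points), ZNF562 (77.1 to 82.3, 11.5 points), ZNF234 (68.3 to 71.0, 11.0 points) and ZNF561 (76.6 to 80.8, 10.5 points). ZNF561 and ZNF562 are neighbors in cluster B, and ZNF234 lies in cluster G among genes that ranked lower. ZNF304 changed by -4.19 points, ZNF331 by -1.96 and ZNF274 by -1.22.

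By cluster the median change was lowest in G, at -2.62 points (-3.59 to -0.339), where 19 of 25 shared regions ranked lower and 6 higher. The 10 shared promoter regions of other genes inside G had a median of 1.53. On the scale of the whole lists the medians of G and H were -4.06 and -3.99, the lowest of the 10 clusters. On that scale the median was -4.65 for all shared regions and -0.988 for all shared promoter regions. Cluster A had too few regions for an interval. Among the 9 others the interval of G alone did not include 0. Neighboring regions of 1 list per group are not replicates, so these intervals are no test of a cluster. Beside the 2.38 of all shared promoter regions G did not stand alone. The intervals of C, D, F, H and J also lay below that value, with upper limits of 2.22, 0.614, 1.23, 0.616 and 1.59. Medians were -0.896 in I, -0.761 in H (23 lower, 14 higher), -0.620 in D (14 and 10), -0.588 in F (13 and 7), -0.366 in A and -0.0541 in J (18 and 17). They were 0.636 in C (11 and 12), 2.44 in E and 3.16 in B, where 4 regions ranked lower and 9 higher. The 11 shared regions outside the clusters had a median of 3.09.

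Away from start sites the zinc finger genes held few accessible regions. Inside the bodies of the members, at more than 1 kb from any start site, there were 66 control regions in 6.21 Mb (10.6 per Mb) and 46 HNF4G-KO regions (7.41 per Mb). The bodies of other chromosome 19 genes held 66.4 and 53.4 per Mb. The body regions of the members were of middling to low score, with a median control percentile of 36.9 compared with 47.8 for the other genes. Of the 66, 28 (42.4%, 31.2 to 54.4%) were in the control list alone, against 24.4% (22.2 to 26.9%) in other gene bodies. These shares were not matched for score, and weak regions are more easily absent from the shorter HNF4G-KO list. Over the clusters as a whole, start sites left out, the density was 17.6 per Mb compared with 59.8 on the rest of the chromosome.

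The genes whose products act with KRAB zinc finger proteins were accessible in both lists. All 16 of a list of such co-repressors had a promoter region in control and in HNF4G-KO, with median percentiles of 91.7 and 88.3. Over all protein-coding genes 74.8% and 72.8% had one, with medians by gene of 85.0 and 84.7. Their median rank change was 2.38 points, with 11 higher and 5 lower, beside 2.38 over all shared promoters. TRIM28, the KRAB co-repressor itself, lies on chromosome 19 and stood at 98.7 and 97.7. SETDB1 had the largest shift downward, from 91.8 to 80.5 (-9.90 points), and ATRX, a chromatin remodeler, changed by -6.93. CBX1 and CBX5, which encode HP1 proteins, changed by 10.2 and 1.70, and TASOR, a subunit of the HUSH silencing complex, by 11.7. UHRF1 had the weakest promoter, at 45.6 in control.

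The label of the cells was checked against marker genes. All 5 epithelial markers (KRT8, KRT18, KRT19, EPCAM and CDH1) and all 3 lineage factors (HNF4A, GATA6 and FOXA1) had a promoter region in both lists. PTPRC, CD3E, PECAM1, DCN, PRSS1, INS and GCG had none, whereas COL1A1 and COL1A2 had one in both lists and CPA1 had one in HNF4G-KO at the 14.8 percentile. The HNF4G promoter stood at 82.4 in control and 82.7 in HNF4G-KO, and since the disruption lies in the coding sequence, an open promoter does not check the knockout.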

How the data were processed

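ATAC-seq was performed by the authors on 16 samples with the Omni-ATAC protocol, and the 8 samples of HPAF-II were used here, 4 control (Cas9) and 4 HNF4G-KO. The authors deposited 1 region list per group, in which every region has a score of unstated scale. The submitters' processing notes name Bowtie2 2.2.6, MACS2 2.1.1.20160309 and DiffBind, without their roles, and hg38 for human samples. How replicates were combined, how reads matching several places were treated and which threshold was used are not given in the sources used here. Per-replicate values and read depths were not analysed here.

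Start sites of all transcripts of protein-coding genes were taken from GENCODE release 44, and 9 chromosome 19 genes with a ZNF symbol and letters after the digits were kept out of every set. Scores were ranked within each list. Regions of the lists that overlapped by 1 bp or more were called shared, and each control region was paired with its longest overlap. A gene took the value of its strongest region. Promoter sequence was read from hg38 for all 240 members, of which 210 also matched the RefSeq promoter table. Medians carry a binomial order-statistic interval and shares a Wilson interval, at 95%. Neither regions nor genes are replicates of a condition, so no test was made. Protein features were not computed, since no protein table was used here.

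Genes were named by rule: those with a region in one list alone, the 5 largest rank changes each way, the 5 highest and 5 lowest control percentiles, up to 15 without a region in chromosome order, and a fixed list with known roles. The members of the 3 runs beyond the 15 and the printed sequences were chosen after their values were seen. The members, gene lists and sequences searched were chosen with earlier results of these data known. One marker gene is not reported here. Scripts were checked on simulated data. Python 3.11.15, numpy 2.4.6, pandas 2.3.3, scipy 1.17.1 and matplotlib 3.10.9 were used.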

Additional observations from a re-analysis of the deposited data

How the results depend on the processing

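Of 55 values recomputed under 15 alternatives, 44 moved by less than their interval. Shares, percentiles and the number of clusters cannot change sign. The median rank change of the zinc finger regions and the difference in median percentile from other chromosome 19 promoters kept theirs. The number of clusters has no interval, and a band from 6.67 to 15 was set for it by hand. It was 10, and became 13 with a gap of 250 kb and 9 with a gap of 1 Mb. With only the regions above the median score of each list, the control-only share of zinc finger promoter regions was 2.49% (10.4% on the rest of chromosome 19), the median percentiles within these shorter lists were 84.9 in control and 81.0 in HNF4G-KO, and the median rank change was -1.16 points. With lists of equal size the control-only share was 3.67% (7.86%). Where 50% or more of both regions had to overlap, the control-only share was 11.9% (22.0%) and the HNF4G-KO-only share 9.50%, and where a gap of up to 500 bp also counted as shared they were 3.52% (10.7%) and 0%. Ranked in the whole lists the median change was -1.95 points, close to the -1.77 on the rest of chromosome 19. The difference in rank change between both sets thus depended on the scale of the ranks. It also depended on matching by score, where pairs that are not 1 to 1 enter the mean. With 1 to 1 pairs alone the median change of the zinc finger regions was -0.435 points. Ranked among promoter regions their median change was -2.02, against 0.116. Within the top score bin the whole-list medians were -1.42 and -0.458.

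No paired analysis was possible because each group was represented by 1 region list without replicate columns, and no replicate was left out for the same reason. The unknown depth limits every statement on an absent region, and the weakest regions of the control list are the ones most easily missing from the shorter HNF4G-KO list.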
